A study of Mus musculus with 18 samples.

Results

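The keratin-associated proteins, encoded by the Krtap genes, are small proteins of the hair shaft. In the table of gene counts from mouse back skin, all genes whose symbol begins with Krtap and a digit were taken, which gave 58 members in 27 numbered subfamilies among 55357 genes. Gene models under other symbols that share sequence with members, such as Gm2696 with Krtap10-10, were not taken. Such models are outside all counts, sums and shares given here. Skin came from FVB mice aged 6 months in 3 groups of 6 mice, 1 library per mouse: WT mice, transgenic N-IKKα mice that carry exogenous IKKα in the nucleus of keratinocytes, and transgenic C-IKKα mice that carry it in the cytoplasm. The promoter that drives the transgenes is not given in the sources used here. Values are normalized counts, that is, read counts divided by 1 size factor per library. Libraries held 11147431 to 15692431 counted reads, and 1 read was worth 0.816 to 1.20 normalized counts.

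In a growing follicle, the cells that leave the hair matrix first make hair keratins, which form filaments, and then keratin-associated proteins, which embed and cross-link these filaments. The family is divided into high sulfur and ultra-high sulfur proteins, rich in cysteine that forms disulfide bonds, and high glycine-tyrosine proteins. The genes are small, mostly without introns, and lie in clusters of related copies. Growth of the shaft takes place only in the growing phase of the hair cycle, so the genes are known as markers of that phase.

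Earlier work with these data named 6 libraries, WT 1 and 4, N-IKKα 8, 9 and 11 and C-IKKα 14, as growing-hair libraries from their hair shaft genes, members of this family included. The gap between these 6 and the other 12 libraries is therefore set by how they were named, and it is described without a test. The epidermal keratin Krt14 was between 7771 and 17163 normalized counts in all 18 libraries, as in skin. Chuk, the gene of IKKα, averaged 1007 ± 147 normalized counts in WT, 990.4 ± 93.3 in N-IKKα and 889 ± 26.3 in C-IKKα (SD, n = 6 each). It was thus no higher on average in the transgenic groups, and the level of the transgene cannot be read from it.

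Summed over the family, Krtap genes held 61525 normalized counts in WT 1 and 146545 in WT 4. In the N-IKKα group they held 102849.9 in library 8, 13500.4 in library 9 and 66068 in library 11, and in C-IKKα 14 they held 24820.3. In the other 12 libraries the sum was 296 to 1002, with a median of 384. Library N-IKKα 9, the lowest of the 6, was thus still above the highest of the 12, WT 6. The family took 0.104% to 1.12% of all counted reads in the 6 libraries and 0.00219% to 0.00747% in the 12. Between 50 and 52 members had at least 1 read in each of the 6 libraries, against 12 to 41 members in the 12. In bulk skin, fewer shaft-forming cells and less RNA per such cell cannot be told apart.

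**Figure D1:**
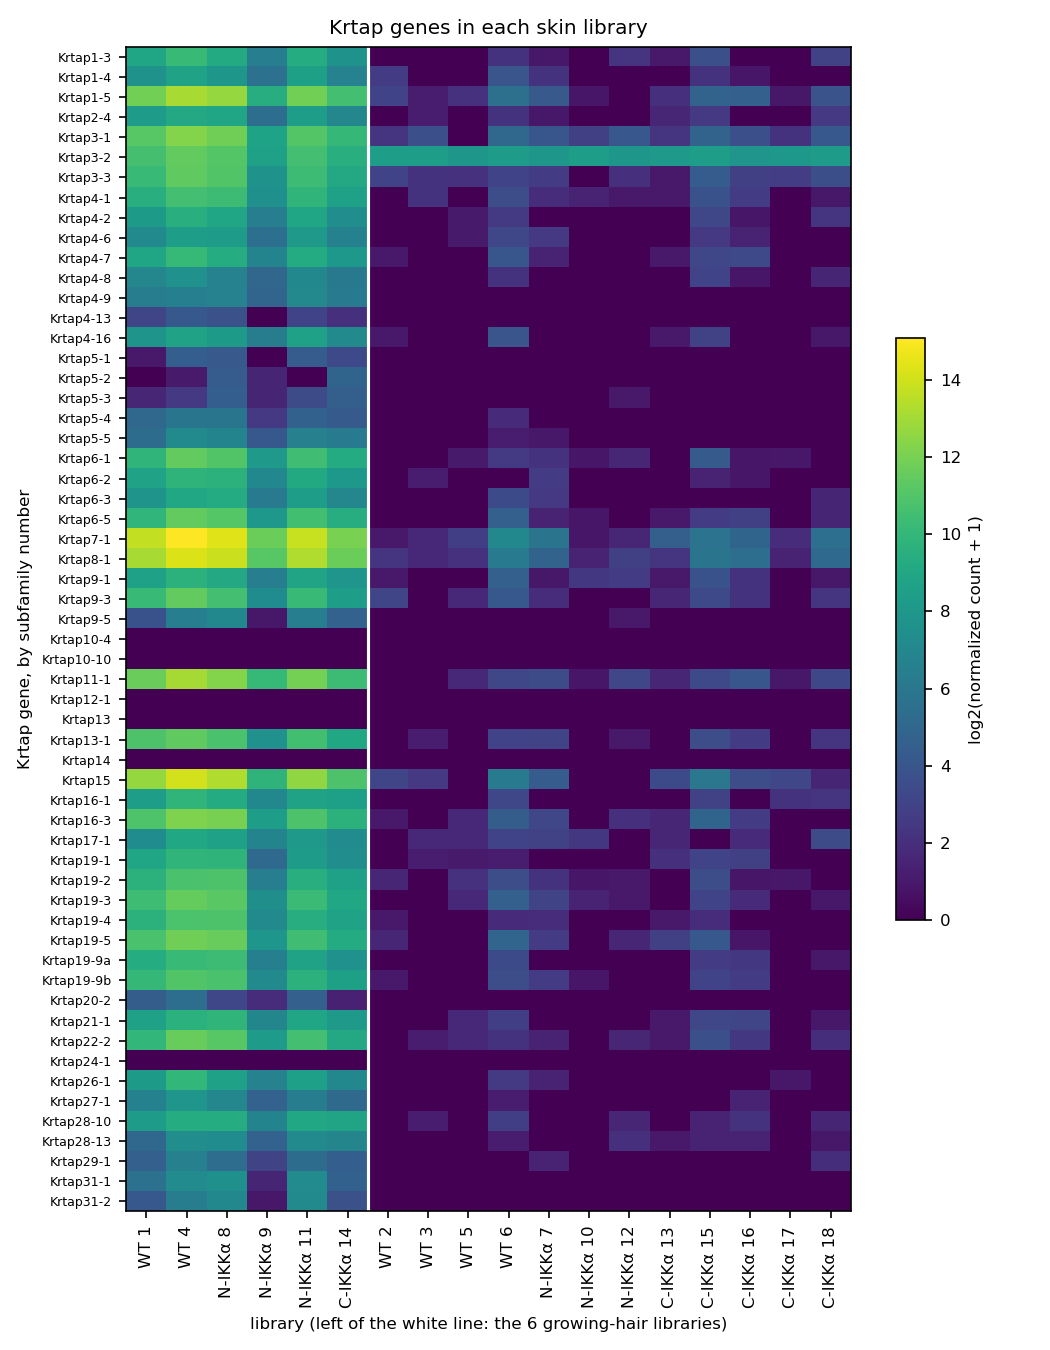
The 58 Krtap genes (rows, by subfamily number) in the 18 libraries (columns), coloured by log2(normalized count + 1), with the 6 growing-hair libraries left of the white line. Krtap3-2 is the row that stays coloured across the 12 libraries on the right, at 232 to 349 normalized counts, and 6 rows are at 0 throughout.

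Of the 58 members, 42 reached 10 normalized counts in at least 6 libraries, 10 had reads but stayed under that limit, and 6 were listed at 0 in all 18 libraries. Krtap3-2 was at or above 10 in all 18 libraries. Krtap3-1 and Krtap7-1 reached 10 in 7 and 6 of the 12 other libraries. The remaining members passed only through the 6 growing-hair libraries, so that those that passed had to differ. Among the 52 members with reads, the 6 libraries lay above the 12 without overlap in 48. Of all 28709 genes with a read in any library, 5.48% lay above in this way and 3.25% lay below. Past the filter, 42 of 42 members lay above, beside 8.45% of genes above and 5.25% below. Nothing is read from that contrast, since the libraries were named by these genes. Of the 10 members under the limit, 5 reached 10 normalized counts in all the growing-hair libraries but 1.

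The members listed at 0 were Krtap10-4, Krtap10-10, Krtap12-1, Krtap13, Krtap14 and Krtap24-1. A value of 0 allows up to 3 reads, a limit for counting error only that equals between 2.45 and 3.61 normalized counts. The members of subfamilies 10 and 12 lie on chromosome 10, and all 3 were at 0. Krtap13 lies next to Krtap13-1 among the members, and Krtap13-1 reached 201 to 2741 normalized counts in the 6 libraries. A 0 in this table is not proof of silence: Tchh, the gene of trichohyalin in the inner root sheath, was also listed at 0 in all 18 libraries. Krtap10-10 shares 36.3% of its 150-base stretches with the gene model Gm2696, Krtap13 shares 11.3% with other gene models and Krtap10-4 shares 10.7%. The part of such copies in the listed zeros was not tested.

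The most abundant member was Krtap7-1, a high glycine-tyrosine protein gene. It held 13183 normalized counts in WT 1, 34765 in WT 4, 20538 in N-IKKα 8, 3266 in N-IKKα 9, 14377 in N-IKKα 11 and 4165 in C-IKKα 14. Its range was 0.88 to 129 in the other 12 libraries, with a median of 14.2. Krtap8-1, of the same class, followed with 2305 to 20061 in the 6 libraries and a median of 9373, against 1.76 to 71.0 in the 12. These were the only members besides Krtap3-2 with reads in every library.

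Next came the high sulfur genes Krtap15 (914 to 17240.4 normalized counts in the 6 libraries), Krtap1-5 (684 to 8678) and Krtap11-1 (1088 to 8530.0). Their medians in the 12 libraries were 8.19, 5.28 and 5.27. The first pair of genes made up 30.1% to 41.3% of the Krtap sum in the 6 libraries, and all 5 genes together 49.0% to 61.2%. The lowest of these shares was in C-IKKα 14. Krtap15 shares 19.1% of its exon length with 4930553J12Rik, so some of its reads may have been counted elsewhere.

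Levels between genes were compared per kb of exon. On that scale the medians over the 6 libraries were 22191 normalized counts per kb for Krtap7-1, 16328 for Krtap8-1 and 6094 for Krtap15. Krtap3-1 followed with 3653 per kb, Krtap1-5 with 3632, Krtap11-1 with 3518 and Krtap22-2 with 3468. Krtap22-2, a short high glycine-tyrosine gene, had only 310.4 to 3099 normalized counts before division by its exon length of 365 bases. The order depends on the length used. Per kb of coding length the medians were 52798 for Krtap7-1 and 51216 for Krtap8-1, and Krtap1-5 (10330) passed Krtap15 (9848).

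By subfamily, the largest shares of the Krtap sum in the 6 libraries belonged to Krtap7 (median 21.6%, range 16.8% to 24.2%), Krtap8 (14.6%, 13.4% to 17.1%) and Krtap19 (10.2%, 6.88% to 12.8%). The Krtap7 and Krtap8 subfamilies have 1 member each, whereas Krtap19 has 7. Per kb of exon the order of the last pair turned, with medians of 22.9% for Krtap7, 16.6% for Krtap19 and 16.4% for Krtap8. Per kb of coding length the order did not turn, with 23.2% for Krtap8 and 12.0% for Krtap19. Krtap19-9a, 1 of the 7 Krtap19 genes, is annotated as a processed pseudogene with 166 bases of exon and no coding length. It had the highest median per kb of exon in Krtap19, 3246 normalized counts. Before division by length, the highest member of Krtap19 was Krtap19-5, at 238 to 3546 normalized counts, and the lowest was Krtap19-1, at 35.01 to 918. Krtap15 held a median of 9.49%, Krtap3 7.63%, Krtap1 7.25%, Krtap11 5.54% and Krtap6 5.53%. The ranges of these 5 subfamilies touch or overlap each other over the 6 libraries, except that every Krtap3 share exceeded every Krtap6 share.

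Krtap4, the subfamily with the most members, held a median of only 3.82% over its 8 genes. Its highest member, Krtap4-1, ranged from 187 to 1549 normalized counts, and Krtap4-13 did not pass 17.1. Krtap9, Krtap22 and Krtap13 held medians of 2.48%, 2.24% and 1.99%. Krtap21, Krtap28, Krtap26, Krtap2, Krtap17, Krtap5, Krtap31, Krtap27, Krtap29 and Krtap20 each held under 1% at the median. A subfamily number does not mark 1 kind of protein throughout. Krtap16-3 lies on chromosome 16 and codes for 59.3% glycine and tyrosine, whereas Krtap16-1 lies on chromosome 11 and codes for 20.1% cysteine. Krtap16-3 had 352 to 4550.4 normalized counts in the 6 libraries and Krtap16-1 had 132 to 948.

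**Figure D2:**
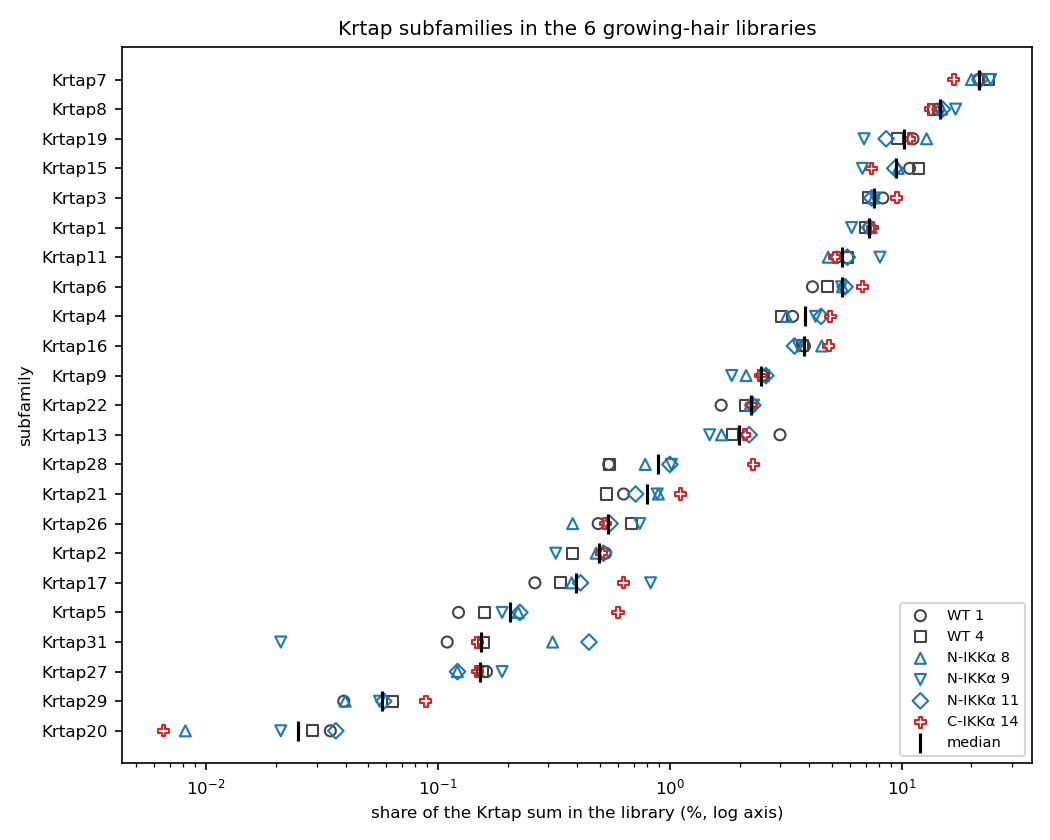
Share of each Krtap subfamily with reads in the Krtap sum (x axis, percent, log axis) in each of the 6 growing-hair libraries (open symbols) with the median (black bar). Krtap7, Krtap8 and Krtap19 lead, and Krtap31, Krtap5 and Krtap28 spread most between libraries among those with over 0.1%.

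The protein classes differed in the same libraries. The 17 high glycine-tyrosine genes supplied 54.5% to 60.2% of the Krtap sum in the 6 libraries, the 19 high sulfur genes 32.4% to 36.5% and the 22 ultra-high sulfur genes 6.62% to 10.9%. These ranges do not overlap. Per kb of exon, the median gene of the first class had a level of 2036 normalized counts, that of the second class 385 and that of the third 97.0. Of the high glycine-tyrosine genes 16 passed the filter and 0 were listed at 0. In each of the other classes 13 passed and 3 were listed at 0. Shared sequence was uneven between the classes: 16 members share 150-base stretches with another gene model. Of the high glycine-tyrosine genes only Krtap6-1 does (4.94%), whereas Krtap3-3 (31.3%) and Krtap4-13 (51.2%) are among those in the other classes. The part of such copies in the class levels was not tested. The class of subfamilies 16 and 28 to 31 was set here from codon composition, at 30% cysteine or 50% glycine and tyrosine.

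Within a class the levels were far from even. The high glycine-tyrosine genes run from Krtap20-2, at 1.63 to 42.2 normalized counts in the 6 libraries, to Krtap7-1. Krtap7-1 has only 29.9% glycine and tyrosine codons and Krtap8-1 has 47.5%, whereas Krtap6-1, with 69.2%, had 279 to 2805 normalized counts. Of the ultra-high sulfur genes, Krtap9-3 had the highest counts, at 163 to 2805, while Krtap5-2 had 0 to 27.7. By chromosome, the 25 members on chromosome 16 supplied 69.8% to 77.9% of the sum and the 23 members on chromosome 11 supplied 21.4% to 27.3%. The 5 genes of subfamily 5 on chromosome 7 held 0.123% to 0.598%, and the pair of subfamily 28 genes on chromosome 1 held 0.546% to 2.29%.

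**Figure D3:**
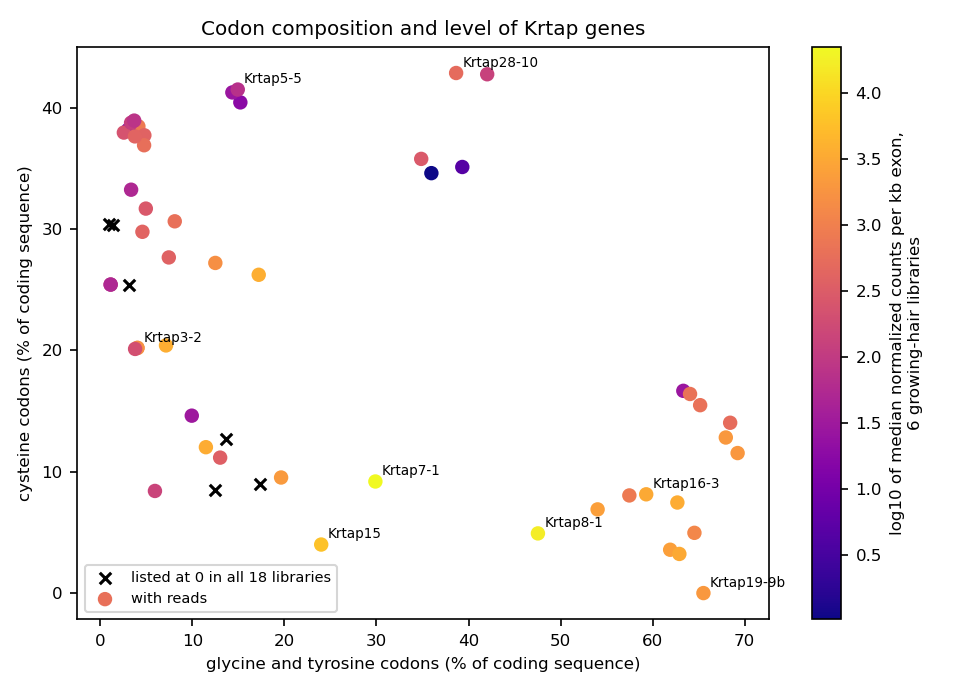
Cysteine codons against glycine and tyrosine codons (percent of the coding sequence, GENCODE models of GRCm38) of the Krtap genes with a coding model, coloured by the log10 of the median normalized count per kb of exon in the 6 growing-hair libraries, with crosses for genes at 0. The brightest points, Krtap7-1 and Krtap8-1, have fewer glycine and tyrosine codons (29.9% and 47.5%) than the other genes of their class.

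Krtap3-2 stood apart from the other members. It held 1573 normalized counts in WT 1, 2877 in WT 4, 2104 in N-IKKα 8, 396 in N-IKKα 9, 1531 in N-IKKα 11 and 747 in C-IKKα 14. In the other 12 libraries it stayed between 232 and 349, with a mean of 293 ± 41.0 (SD, n = 12). In those 12 libraries Krtap3-1, from the same subfamily, ranged from 0 to 31.3 and Krtap3-3 from 0 to 20.2. The mean over the 6 libraries was 5.25 times the mean over the 12 for Krtap3-2, 195 times for Krtap3-1 and 217 times for Krtap3-3. The median of this ratio over the passed members with more than 3 reads in the 12 libraries was 294.

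Krtap3-2 alone made up 31.7% to 92.6% of the Krtap sum in the 12 libraries and 1.96% to 3.01% in the 6. Without it, the sum of the other 57 genes was 26.4 to 685 normalized counts in the 12 libraries (median 69.9) and 13105 to 143668 in the 6. The ratio of the means rose from 146 with Krtap3-2 to 374 without it. Krtap3-2 and Krtap3-3 share sequence: 20.9% of the 150-base stretches of Krtap3-2 also occur in Krtap3-3. In the 12 libraries Krtap3-3 itself was at most 20.2, below every Krtap3-2 value. The annotation used here places no exon of another gene over Krtap3-2.

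**Figure D4:**
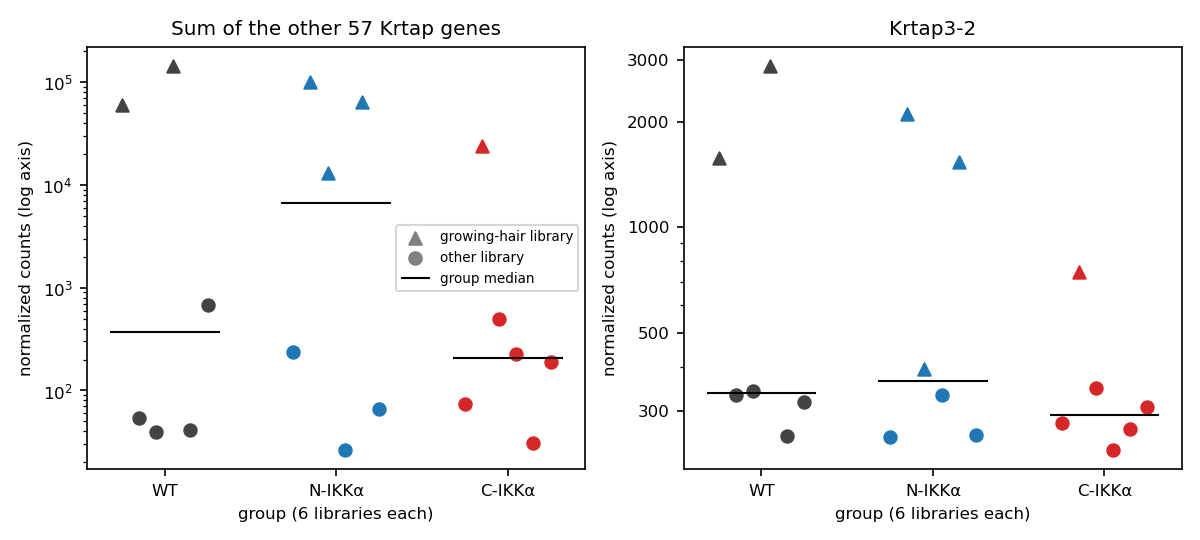
Normalized counts (log axes) of the 57 other Krtap genes summed (left) and of Krtap3-2 (right) by group, 1 point per library, with group medians as bars and the growing-hair libraries as triangles. The circles on the right lie between 232 and 349, while those on the left spread from 26.4 to 685.

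The start regions of subfamily 3 and of a pair of genes with opposite levels are shown because they let the sequences be read beside these levels. Each line gives the 150 bases before the start of the gene, 5′ to 3′ on the gene's strand, from RefSeq on GRCm38.p6, with the letters TATAAA in capitals.
Krtap3-1 (chr11:99566631-99566780, minus strand): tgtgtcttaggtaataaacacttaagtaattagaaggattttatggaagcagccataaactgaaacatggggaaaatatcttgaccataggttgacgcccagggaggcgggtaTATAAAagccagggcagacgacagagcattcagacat
Krtap3-2 (chr11:99556854-99557003, minus strand): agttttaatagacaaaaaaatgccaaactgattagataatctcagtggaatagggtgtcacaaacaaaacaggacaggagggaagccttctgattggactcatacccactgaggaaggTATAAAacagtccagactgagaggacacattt
Krtap3-3 (chr11:99550864-99551013, minus strand): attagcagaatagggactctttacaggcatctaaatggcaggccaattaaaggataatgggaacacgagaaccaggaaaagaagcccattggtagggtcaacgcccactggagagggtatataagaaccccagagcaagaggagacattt
Krtap8-1 (chr16:89487953-89488102, minus strand): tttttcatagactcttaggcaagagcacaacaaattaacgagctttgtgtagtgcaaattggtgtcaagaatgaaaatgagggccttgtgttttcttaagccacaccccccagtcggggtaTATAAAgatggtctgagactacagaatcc
Krtap24-1 (chr16:88612280-88612429, minus strand): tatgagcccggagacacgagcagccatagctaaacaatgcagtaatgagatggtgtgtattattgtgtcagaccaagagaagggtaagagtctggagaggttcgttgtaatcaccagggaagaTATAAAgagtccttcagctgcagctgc
Krtap3-2 holds TATAAA with its first base at position −32 from the start and Krtap3-1 at −37, so both the gene with counts in all libraries and its neighbour carry these letters. Krtap3-3 does not carry these exact letters but holds the related letters tatataag near its start. Krtap8-1, the second most abundant member, holds TATAAA at −29, and Krtap24-1, listed at 0, holds it at −27.

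A start region was given for 51 of the 58 members. TATAAA, a common form of the TATA box that positions the transcription machinery, began within the last 50 bases before the start, on the gene's strand, in 34 of 51 members (66.7%) and in 779 of 27025 start regions of all genes (2.88%). Among the 34, its first base lay between −49 and −27, with a median of −31. The members arose as copies of each other, so these are not independent cases. It was present in 24 of 37 members that passed the filter, in 8 of 10 members with reads under it and in 2 of 4 members listed at 0. In windows of 250 bases before to 50 bases after the start, read on both strands, TATAAA occurred in 82.4% of members and 14.2% of all genes. Related letters, such as tatataag before Krtap3-3, were not counted, so a member without TATAAA may still hold a TATA box.

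In the same windows the Lef/Tcf letters CTTTGNT occurred in 35.3% of members and 18.6% of all genes. The Foxn1 letters GACGC occurred in 5.88% and 27.4%, and the letters CAATAAA, searched for Hox13 proteins, in 0% and 4.84%. CAATAAA and TATAAA share their last 5 letters but cannot end at the same base. These are matches of letters and not sites, and a missing match says only that the letters are not in this window.

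The hair keratins, the filaments that these proteins embed, were described beside the family. All 15 of the 16 listed hair keratins that the table held were higher in each of the 6 libraries than in any of the 12. Their sum was 20541 normalized counts in WT 1, 50263 in WT 4, 35826 in N-IKKα 8, 9698 in N-IKKα 9, 24285 in N-IKKα 11 and 9842 in C-IKKα 14. The Krtap sum was 2.52 to 2.995 times the hair keratin sum in 5 of these libraries and 1.39 times in N-IKKα 9. N-IKKα 9 was thus the lowest of the 6 both in Krtap level and in this ratio.

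The gap in N-IKKα 9 depended on the keratin it was set against. Krt35, a type I hair keratin that in human hair is made early, in the matrix and precortex, was at 4211 normalized counts in N-IKKα 9, within the range of 1903 to 4990 of the 6 libraries. Krt33a, a type I keratin of the cortex, was lowest in N-IKKα 9, at 946 against 1423 to 7388 in the other 5. The type II keratins Krt83 and Krt87 were also lowest there, at 455 and 909, against ranges of 892 to 6145 and 1170.1 to 6840.5. Of the 15 hair keratins, 10 had the lowest value of the 6 libraries in N-IKKα 9. The Krtap sum was 3.21 times Krt35 in N-IKKα 9 and 13.0 to 29.8 times in the other 5. Against Krt71, a keratin of the inner root sheath, it was 0.215 in N-IKKα 9 and 0.899 to 1.55 in the others.

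Regulators of the hair matrix were not low in N-IKKα 9. Hoxc13, a homeobox factor required for hair keratin expression, was at 3803 normalized counts in N-IKKα 9, within the 1762 to 4057 of the 6 libraries. Lef1, a partner of β-catenin, was 2524, Msx2 was 2492 and Dlx3, a homeobox factor of the matrix, was 9187, and each of these was the highest value of all 18 libraries. Foxn1, a forkhead factor whose loss makes mice hairless, was 1267 in N-IKKα 9, against 791 to 2183 over the 6. In the 12 libraries these genes had medians of 207 for Hoxc13, 142 for Lef1, 99.8 for Msx2, 440.4 for Dlx3 and 308 for Foxn1. Their mean levels in the 6 libraries were 5.04 to 18.2 times those in the 12.

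One of the 12 libraries was the highest of them in several genes of the matrix and inner root sheath but not in the Krtap sum. In C-IKKα 18, Krt35 was at 158 normalized counts and Krt71 at 2152, each the highest of the 12. Hoxc13, Lef1, Msx2 and Dlx3 were also highest of the 12 there, at 377, 405, 203 and 749.9. The Krtap sum without Krtap3-2 was 189 in C-IKKα 18, below WT 6 (685), C-IKKα 15 (498), N-IKKα 7 (239) and C-IKKα 16 (227). It was above the median of 69.9 over the 12 libraries.

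**Figure D5:**
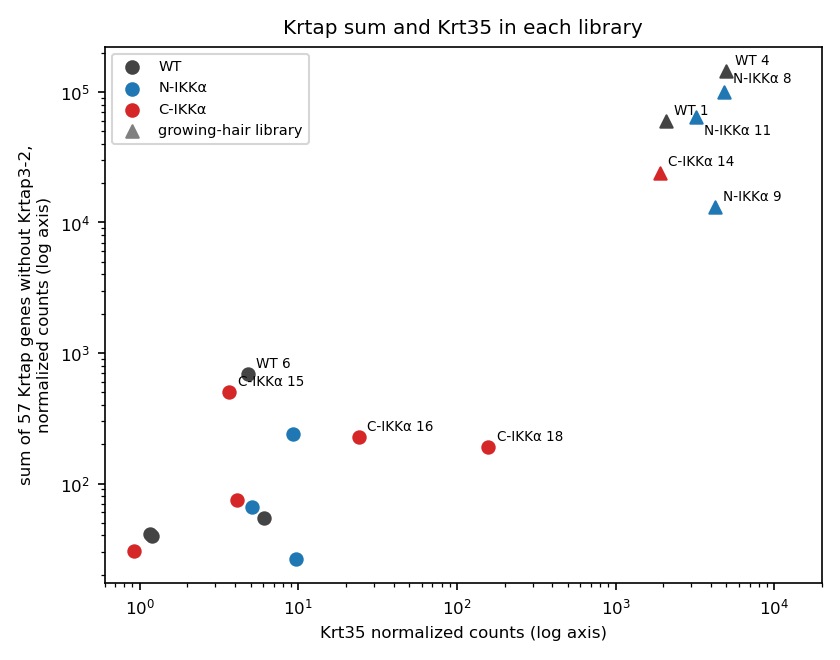
Sum of the 57 Krtap genes other than Krtap3-2 against Krt35 (normalized counts, both axes log) in the 18 libraries, coloured by group, with the growing-hair libraries as triangles. N-IKKα 9, at 4211 for Krt35 and 13105 for the sum, lies below the other triangles, and C-IKKα 18, at 158 and 189, lies right of the other circles.

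Some other cell markers moved with the same split of libraries. Their counts without overlap stand beside 8.45% of all genes past the filter with the 6 above and 5.25% with the 6 below. The 8 melanocyte genes summed to 6489 to 17998 normalized counts in the 6 libraries and 1996 to 4044 in the 12, and 6 of the 8 did not overlap. The inner root sheath genes summed to 64045 to 228422 and 4389 to 9495, and 11 of 13 did not overlap. The 8 T cell genes summed to 231 to 481 in the 6 libraries and 726 to 1103 in the 12, and 3 of 8 did not overlap. The 8 basal keratinocyte genes were 0.721 times as high in the mean over the 6 as over the 12, and 4 of 8 did not overlap. The 8 dermal fibroblast genes had the lowest ratio of the means, 0.209, with overlapping sums of 29024 to 71052 in the 6 libraries and 45666 to 405858 in the 12, and 2 of 8 did not overlap. The ratio was 0.541 for the sebaceous gland genes and 0.609 for the suprabasal keratinocyte genes, with overlapping sums for both. Without overlap, 2 of 10 suprabasal keratinocyte and 1 of 6 endothelial genes had the 6 libraries below the 12. In 1 of 8 dermal papilla genes the 6 lay above. The sebaceous gland, adipocyte, macrophage and skeletal muscle lists had 0 such genes. All 6 growing-hair libraries were read as female from Ddx3y, against 4 of the other 12. Sex and the split can therefore only be separated among the female libraries, and the part of these markers in the Krtap levels was not tested.

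The composition of the family also varied among the 6 libraries. Against the median of the other 5, the share of the median ultra-high sulfur gene differed by 0.62 on the log2 scale in C-IKKα 14, where 13 of 14 such genes with at least 300 reads were above, and by 0.36 in N-IKKα 11, also with 13 of 14 above. In C-IKKα 14, 13 of 16 high glycine-tyrosine genes and 9 of 15 high sulfur genes were above as well, with median differences of 0.11 and 0.08. The share of the median ultra-high sulfur gene differed by 0.19 in N-IKKα 9, with 11 of 14 above. For the same class it differed by −0.60 in WT 1, −0.47 in WT 4 and −0.28 in N-IKKα 8. By this measure the ultra-high sulfur genes were lowest in both WT libraries, whereas by summed share N-IKKα 8 (6.70%) was below WT 1 (6.83%). The whole class held 10.9% of the Krtap reads in C-IKKα 14 (95% Wilson interval 10.5% to 11.2%) and 6.62% in WT 4 (6.49% to 6.76%).

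Krtap28-10, a gene on chromosome 1 with 42.9% cysteine codons, made up 1.82% of the Krtap reads in C-IKKα 14 (95% Wilson interval 1.68% to 1.98%). Its share was 0.439% to 0.827% in the other 5 libraries. Of 45 members with at least 300 reads over the 6 libraries, 16 had their highest share in C-IKKα 14 and 15 had their lowest in N-IKKα 9. Krtap31-1 and Krtap31-2, which share 150-base stretches with each other, together made up 0.0210% in N-IKKα 9 (95% Wilson interval 0.00715% to 0.0618%) and 0.449% in N-IKKα 11 (0.399% to 0.504%). Krtap11-1 went the other way, with 8.06% in N-IKKα 9 (7.63% to 8.52%) and 4.82% to 5.83% in the other 5. Krtap17-1 was likewise highest in N-IKKα 9, at 0.827% (0.691% to 0.9895%) against 0.262% to 0.631%. These intervals cover counting error only, and each of these patterns was seen in 1 mouse.

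The design compares WT skin with each transgenic group. C-IKKα had 1 growing-hair library, WT had 2 and N-IKKα had 3, and the spread within each group was wider than any gap between groups. The Krtap sum without Krtap3-2 had medians of 369.5 in WT (range 39.3 to 143668), 6672 in N-IKKα (26.4 to 100746) and 208 in C-IKKα (30.5 to 24074). All 3 ranges overlap. By Ddx3y, WT and N-IKKα each had 2 libraries read as male and 4 as female, whereas C-IKKα had 4 male and 2 female. All growing-hair libraries were read as female, so sex is not balanced in the comparisons with C-IKKα. In the fit over all genes with limma (values as log2(normalized count + 1), 6 libraries per group), 0 of the 42 tested members were called at an adjusted p below 0.05 in any comparison.

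For C-IKKα against WT, 0.345% of the 17667 genes tested were called. The median difference over the 42 members was −1.42 on the log2 scale, and 0 of the 42 were positive, against a median of 0.00 over all genes tested. For N-IKKα against WT, 0.00566% of genes were called, and the members' median was 0.88 with 40 of 42 positive. For N-IKKα against C-IKKα, 0.43% were called, and the median was 2.28 with 42 of 42 positive. The comparisons share groups. At an unadjusted p below 0.05, 0 of 42 members passed in each comparison, beside 5.73%, 4.14% and 11.7% of all genes. The calls were also 0 with edgeR, beside 0.311%, 0.00566% and 0.34% of genes, and with DESeq2, beside 0.855%, 0.0113% and 1.06%, where 1 member, Krtap3-2, had an unadjusted p below 0.05 in C-IKKα against WT, beside 7.19% of genes. No member had groups without overlap, beside 0.985%, 0.125% and 1.05% of genes.

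The errors behind these values were large. The standard error was 0.64 for Krtap3-2 and up to 2.83 for other members, and the median half-width of the 95% interval was 4.55 on the log2 scale. In C-IKKα against WT the members with the smallest p were Krtap3-2, Krtap1-4 and Krtap19-2. Krtap3-2 averaged 949.4 ± 1071 normalized counts in WT and 363 ± 192 in C-IKKα (SD, n = 6; log2 difference −0.82, SE 0.64, limma adjusted p = 0.985). The difference was −2.18 (SE 1.83) for Krtap1-4, of the high sulfur class, and −2.28 (SE 2.18) for Krtap19-2, both with a limma adjusted p of 0.985.

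In N-IKKα against C-IKKα the smallest p values belonged to Krtap6-3 (log2 difference 2.96, SE 1.99, limma adjusted p = 0.488), Krtap19-3 (3.27, SE 2.34) and Krtap26-1 (2.89, SE 2.08). In N-IKKα against WT they belonged to Krtap28-13 (1.28, SE 1.61), Krtap11-1 (2.03, SE 2.57) and Krtap6-2 (1.51, SE 2.20), each with a limma adjusted p of 0.888 or above. For Krtap11-1 the sign was not stable, since edgeR gave −0.24 and DESeq2 −0.25. The hair keratins behaved alike: of 15 tested, 0 were called in any comparison, and 0, 15 and 15 were positive in C-IKKα against WT, N-IKKα against WT and N-IKKα against C-IKKα. Of the 12 regulators of the hair matrix tested, 0 were called.

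The 6 growing-hair libraries were named from genes of this family among others, so that leaving them out, or adjusting for hair keratins, takes away high Krtap values by construction. Without these 6 libraries the members' median was 0.25 in C-IKKα against WT, −0.23 in N-IKKα against WT and −0.32 in N-IKKα against C-IKKα, and 0 members were called, beside 1.05%, 0.0113% and 0.323% of genes. With the mean of the hair keratins as a covariate the medians were −0.18, −0.35 and −0.10, again with 0 calls, beside 0.843%, 0.00566% and 0.792% of genes. With sex as a covariate 0 members were called, beside 0.368%, 0.00566% and 0.357%, and the medians were −0.13, 0.88 and 0.92. With that covariate 16, 40 and 42 of the 42 members were positive. With edgeR the median of N-IKKα against WT was −0.06, with 16 of 42 positive. Leaving out WT 4 moved the median of C-IKKα against WT to −0.21, and leaving out C-IKKα 14 moved it to −2.62. In N-IKKα against WT the median was −0.13 without N-IKKα 8 and 2.30 without WT 4. In each of these fits with 1 library left out, only 25 members passed the filter. Their medians are thus over fewer members than the 42 of the main fit. Among the 12 remaining libraries, Krtap3-2 differed by −0.13 in C-IKKα against WT (SE 0.14) and by −0.16 in N-IKKα against WT (SE 0.16), and limma called neither (adjusted p = 0.784 and 0.902).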

How the data were processed

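Back skin RNA of 18 FVB mice was sequenced. Per the labels' protocols, RNA was purified with TRIzol and RNeasy MinElute columns, a kit that keeps strand was used for mRNA libraries, and a NovaSeq read them as paired ends. The submitters' processing notes name featureCounts and GRCm39. For the aligner, annotation, versions, strand setting and scaling, the details are not given in the sources used here, and none is assumed.

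What the authors deposited is signal, a normalized count for each gene in each library. Division by the smallest step of a library gave whole reads for 100% of its values, with a tolerance of 0.001. Libraries held 11147431 to 15692431 reads. No library was a copy of another, since the chi-square per gene of the closest pair was 4.82. Separate mice are named in the labels.

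Genes with at least 10 normalized counts in at least 6 libraries were fitted as log2(normalized count + 1) with limma 3.58.1 (R 4.3.3, 1 model over 3 groups, 15 residual degrees of freedom), with two-sided p values adjusted by Benjamini-Hochberg over 17667 genes. The model was tested on simulated data in which all genes had the same relative spread between replicates. That test does not cover genes with a spread as wide as that of the Krtap members. Alternatives were edgeR 4.0.16 and DESeq2 1.42.0 on recovered reads, other pseudocounts (0.5, 5), other filters (none, 50), TMM and median-of-ratios scaling, the compared groups alone, covariates for sex (male above 500 normalized counts of Ddx3y) and for the mean of 15 hair keratins, and leaving out libraries. Gene lengths, exon overlap and shared 150-base stretches came from GENCODE M21 on GRCm38, matched by gene identifier for 58 of 58 members; these models may differ from those the authors counted on.

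The members, the 6 growing-hair libraries and the gene lists were chosen with earlier results of these data known. Members are named where they lead their subfamily or the family, or have the 3 smallest p values in a comparison; hair keratins are the 2 highest of each type. Others were named after their values were seen. Promoter sequences are from RefSeq.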

Additional observations from a re-analysis of the deposited data

Results flagged for a closer look

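The values below were flagged because 1 library of a group of 6 lay far from the other 5, measured as its gap to the nearest value over the whole range against a limit of 0.625. In total 36 groups of values were examined and 13 were flagged. For normally distributed values chance alone flags about 1 in 20, and whether that rate holds for these counts was not tested. No comparison with that rate is drawn: the flagged libraries were named as growing-hair from genes of this family among others, which set the outcome.

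In the C-IKKα group, library 14 was the only growing-hair library and was flagged for 11 values. Its Krtap sum was 24820.3 normalized counts, against 297 to 847 in the other 5, and 24074 without Krtap3-2, against 30.5 to 498. Krtap3-2 was at 747 in that library, against 232 to 349. Krtap11-1 was at 1276, against 0.924 to 15.2. Krtap19-3 was at 529.5 and Krtap19-2 at 401, against at most 7.34 and 11.0. Krtap6-2 was at 262 and Krtap6-3 at 126, against at most 1.84 and 1.90. Krtap1-4 was at 102, Krtap26-1 at 131 and Krtap28-13 at 117, against at most 3.67, 0.924 and 1.84.

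In the WT group, library 4 was flagged for Krtap26-1 at 1001, against 0 to 302 in the other 5, and for Krtap28-13 at 164, against 0 to 32.3. WT 1 was the other growing-hair library of that group and held the highest of those 5 values.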

How the results depend on the processing

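No paired analysis was possible because the groups compared share no replicate numbers. Of the alternatives, 389 values of single genes or subfamilies and 201 of the main results were counted as unchanged. For single genes this meant the same sign and side of the threshold, and for shares and medians a move below their spread. A further 33 and 6 values, all subfamily shares, moved by more than it, and 2 values, both of Krtap11-1, changed sign. The spread for the members' medians was 3.95 on the log2 scale, so changes of their sign counted as unchanged. Without the growing-hair libraries the median went from −1.42 to 0.25 in C-IKKα against WT. It went from 0.88 to −0.23 in N-IKKα against WT and from 2.28 to −0.32 in N-IKKα against C-IKKα. The count of members called stayed 0 in all 3 comparisons under every setting run, including each library left out. Krtap11-1 in N-IKKα against WT changed sign, to −0.24 with edgeR and −0.25 with DESeq2; the cause was not tested. Among the 3 leading subfamilies, the shares that moved by more than their spread were these. Per kb of exon length, Krtap8 held 16.4% and Krtap19 16.6%, and per kb of coding length Krtap8 held 23.2%. Without members that share a 150-base stretch with another gene model, Krtap7 held 26.3%, Krtap8 17.8% and Krtap19 12.5%, since fewer members remain in the sum. Of the other 33, Krtap15 held 5.87% per kb of exon and 0% without shared stretches, Krtap3 held 4.22% without them, and Krtap22 held 3.98% per kb of exon. The last setting and the exon length were chosen after seeing the data. The setting without shared stretches stands in for an alternative based on protein identity, which was not run.

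With each library left out in turn, the median log2 difference of the members ranged from −2.62 to −0.21 in C-IKKα against WT, from −0.13 to 2.30 in N-IKKα against WT, from 1.51 to 3.67 in N-IKKα against C-IKKα, and the calls ranged from 0 to 0. The subfamily shares ranged as follows: Krtap1 7.23% to 7.27%, Krtap11 5.27% to 5.82%, Krtap13 1.87% to 2.11%, Krtap15 9.33% to 9.66%, Krtap16 3.75% to 3.81%, Krtap17 0.378% to 0.412%, Krtap19 9.64% to 10.9%, Krtap2 0.482% to 0.510%, Krtap20 0.0210% to 0.0288%, Krtap21 0.712% to 0.883%, Krtap22 2.22% to 2.26%, Krtap26 0.526% to 0.553%, Krtap27 0.148% to 0.157%, Krtap28 0.784% to 1.001%, Krtap29 0.0561% to 0.0584%, Krtap3 7.58% to 7.68%, Krtap31 0.148% to 0.158%, Krtap4 3.39% to 4.25%, Krtap5 0.189% to 0.222%, Krtap6 5.51% to 5.55%, Krtap7 21.4% to 21.8%, Krtap8 14.4% to 14.9%, Krtap9 2.45% to 2.51%.

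Depth limits the members under 3 reads in the 12 libraries, and 25 rather than 42 members pass the filter where a growing-hair library is left out.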

Other observations

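Among the 12 libraries outside the growing-hair set, WT 6 and C-IKKα 15 held the most Krtap reads besides Krtap3-2. WT 6 had reads for 41 members, with 129 normalized counts of Krtap7-1, 74.6 of Krtap15 and 71.0 of Krtap8-1. C-IKKα 15 had reads for 36 members, with 63.3 of Krtap15, 56.0 of Krtap8-1 and 53.2 of Krtap7-1. Krtap3-2 was above all of these, at 318 in WT 6 and 349 in C-IKKα 15. Apart from Krtap3-2, the genes leading in these libraries were thus among those leading in the 6. Krt35 was at 4.81 in WT 6 and 3.67 in C-IKKα 15, below the 158 of C-IKKα 18. The Krtap sum without Krtap3-2 was 4.15 times the hair keratin sum in WT 6, 3.27 times in C-IKKα 15 and 0.628 times in C-IKKα 18, against 1.35 to 2.92 in the 6. These ratios rest on single libraries and were not tested.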
